A study of Mus musculus with 7 samples.

Results

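The 33 genes described here encode integrin chains (19 genes), laminin chains (10 genes), the nidogens Nid1 and Nid2, and the basement membrane proteoglycans perlecan (Hspg2) and agrin (Agrn). They were chosen by name, with earlier results of these data known. All 33 were found among the 18193 genes that have a probe set of their own on the Affymetrix whole-genome mouse array used. Where a gene had several probe sets, the one brightest on average across the 7 arrays stood for it. Left lungs came from 3 mice with a deletion of Gata5 (genotype Gata5 KO), which encodes a zinc-finger transcription factor, and from 4 Wild Type mice (WT), all 8 weeks old, with 1 array per mouse. The sources used here give no strain, deleted exons or cells in which the deletion acts. Values are log2 signal levels, in which a difference of 1 is a doubling of signal.

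Integrins are cell-surface receptors made of an alpha and a beta chain, and the pairing sets which matrix protein the receptor holds. Laminins are cross-shaped trimers of an alpha, a beta and a gamma chain that polymerise under epithelium, endothelium and around muscle, where nidogens and perlecan link them to a type IV collagen network. In the lung the air-blood barrier is built on such a sheet, shared in places by alveolar type 1 cells and capillaries. Leukocyte integrins serve another task, the arrest of blood cells on vessel walls.

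The array medians lay between 6.1 and 6.15. WT replicate 4 stood apart in sex-linked transcripts. Xist was at 12.72 there, against 6.31 to 6.44 on the other WT arrays and 6.41 to 6.48 on KO arrays. The Y-linked Eif2s3y was at 3.71 there, against 9.30 to 9.68 on all other arrays. WT replicate 4 thus had a female transcript pattern, and all KO arrays and the other WT arrays a male one. The labels give no sex. The control probe sets for beta-actin also separated the groups, the 3′ set exceeding the 5′ set by 4.96 ± 0.37 (SD, n = 3) on KO arrays and by 4.10 ± 0.22 (SD, n = 4) on WT arrays (two-sided exact permutation test, p = 0.0286, which is the minimum over 35 splits). For Gapdh that excess was 6.46 ± 0.08 on KO and 6.49 ± 0.11 on WT arrays (exact p = 0.686). Gata5 itself was dim, at 4.95 ± 0.22 in KO and 5.54 ± 0.22 in WT lungs at its probe set 1450126_at, without overlap. Sftpc, the surfactant protein of alveolar type 2 cells, was at 14.03 ± 0.03 in KO and 14.15 ± 0.05 in WT lungs.

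Of the 33 genes, 28 passed the level filter (a mean log2 level of at least 5.47, the 40th percentile of all probe sets) and were tested with limma among 13285 genes. Of these 28, 4 fell in KO lungs, 0 rose and 24 did not pass at a limma adjusted p of 0.05. The genes that fell were the laminin chains Lamb2, Lamb3 and Lamc1 and the laminin-binding integrin chain Itga6. This is 14.3% of the members tested, while 15.6% of all tested genes changed, 10.0% lower and 5.56% higher, so the share called among these genes was near that of the whole array. Unadjusted p was under 0.05 for 11 of the 28 (39.3%), against 34.8% of all tested genes. The median log2 change was -0.14 over the 28 genes and 0.00 over all tested genes, and 20 of the 28 changes were below 0 (71.4%), against 50.8% of all genes tested. In a bulk sample, fewer cells of a type and less RNA per cell cannot be told apart.

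**Figure D1:**
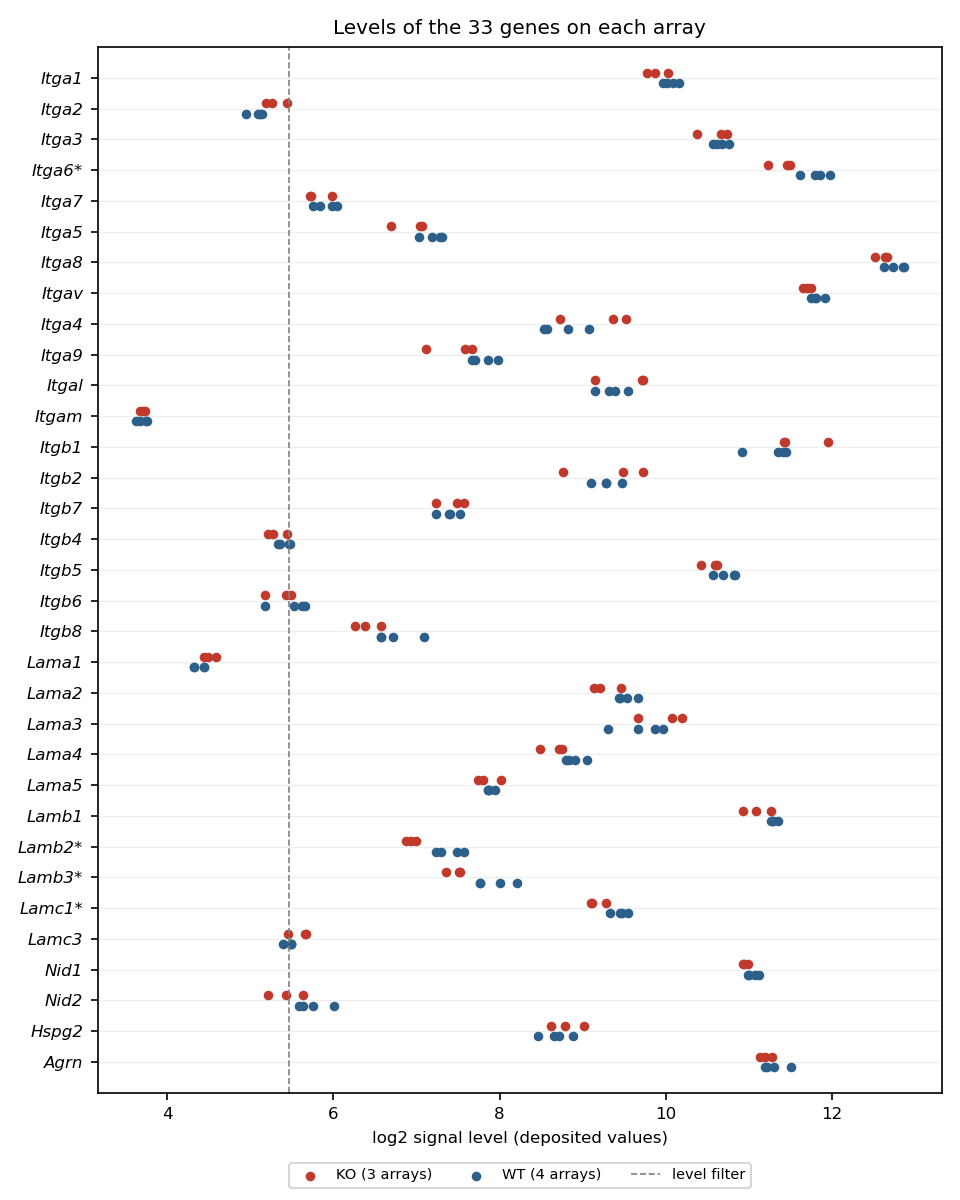
Log2 signal level of each of the 33 genes (rows) on the 3 KO arrays (upper points, red) and the 4 WT arrays (lower points, blue); the dashed line is the level filter at 5.47 and an asterisk marks the 4 genes that passed the test. In the 4 marked genes all KO points lie left of all WT points, whereas in most other rows the groups overlap; distances between rows reflect different probes and are not comparable levels.

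Promoter windows of the genes that fell were read from RefSeq (GRCm38.p6, 250 bases before to 50 after a start site), because GATA factors bind the core letters GATA. Lamb2 and Lamb3 had windows in that table. They are shown 5′ to 3′ on the strand of the gene, with GATA or its reverse complement TATC in capitals. The Lamb2 window (chr9:108479612-108479911, plus strand) holds 1 such match and the Lamb3 window (chr1:193301744-193302043, plus strand) holds 0, as does the window at a second start of Lamb3.
Lamb2: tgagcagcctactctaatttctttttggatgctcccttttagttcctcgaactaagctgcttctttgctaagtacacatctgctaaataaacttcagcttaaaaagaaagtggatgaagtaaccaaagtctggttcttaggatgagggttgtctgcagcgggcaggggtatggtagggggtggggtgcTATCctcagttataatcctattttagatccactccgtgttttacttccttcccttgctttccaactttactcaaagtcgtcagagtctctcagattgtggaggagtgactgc
Lamb3: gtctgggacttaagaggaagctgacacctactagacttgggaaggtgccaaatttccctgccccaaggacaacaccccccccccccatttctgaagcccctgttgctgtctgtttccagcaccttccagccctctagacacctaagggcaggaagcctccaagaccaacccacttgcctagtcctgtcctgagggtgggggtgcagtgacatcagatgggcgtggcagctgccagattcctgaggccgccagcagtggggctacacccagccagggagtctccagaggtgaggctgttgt
Either strand of GATA occurred in 57.9% of the 32851 windows of the table and in 9 of the 26 windows (34.6%) that belong to 22 of the 33 genes. The longer forms AGATAA or else AGATAG, and with a leading T likewise TGATAA or else TGATAG, which all contain GATA and were searched on both strands, occurred in 29.8% of all windows and in 1 of the 26, that of Itgb7. These matches describe letters in short windows and do not show binding.

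Among laminin beta chains, Lamb2 is a chain of vascular and neuromuscular basement membranes. It stood at 6.88, 6.93 and 6.99 in KO lungs, against 7.23, 7.30, 7.49 and 7.57 in WT lungs, with no overlap. The fall was 1.38-fold (log2 change -0.46, SE 0.09, limma adjusted p = 0.0149). Lamb2 was the member that passed whichever array was left out, with a log2 change between -0.52 and -0.41 and an adjusted p of at most 0.0423.

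Lamb3 encodes the beta chain of the laminin that anchors epithelium through hemidesmosomes, together with Lama3. It was at 7.53, 7.51 and 7.36 in KO lungs and at 7.76, 7.76, 8.00 and 8.21 in WT lungs, again without overlap, a 1.38-fold fall (log2 change -0.47, SE 0.12, limma adjusted p = 0.0323). Lama3, the alpha chain of the same trimer, did not pass: it was at 10.08, 10.19 and 9.66 in KO lungs and at 9.31, 9.66, 9.87 and 9.97 in WT lungs, with a log2 change of 0.27 (95% interval -0.13 to 0.68). The Lamb3 call was lost when KO replicate 1, 2 or 3 or WT replicate 3 or 4 was left out, with a log2 change between -0.50 and -0.37 and an adjusted p up to 0.0989. Lamb1, the beta chain found most widely in tissues, was at 11.26, 11.09 and 10.93 in KO lungs and 11.29, 11.26, 11.35 and 11.28 in WT lungs at the probe set used, and did not pass (log2 change -0.20, adjusted p = 0.121), except without KO replicate 1 (log2 change -0.28, adjusted p = 0.0451).

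Lamc1 encodes the gamma chain of most laminins. Its levels were 9.28, 9.10 and 9.11 in KO lungs, against 9.33, 9.54, 9.45 and 9.47 in WT lungs. The groups did not overlap, but the nearest values, KO replicate 1 and WT replicate 1, were 9.28 and 9.33. The fall was 1.22-fold (log2 change -0.28, SE 0.07, limma adjusted p = 0.0377), the smallest of the 4 calls, and it was lost without KO replicate 2 or 3 or WT replicate 2, 3 or 4 (adjusted p up to 0.101). The Lamc1 call was also lost under a further quantile normalization (log2 change -0.20, adjusted p = 0.122) and under cyclic loess (-0.22, adjusted p = 0.0932). Lamc3, a gamma chain of restricted expression, was near the level filter and did not pass, with a mean of 5.60 ± 0.12 for KO lungs, against 5.46 ± 0.05 for WT lungs.

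None of the 4 tested laminin alpha chains passed. Lama4, the alpha chain of vessel basement membranes, was at 8.72, 8.75 and 8.49 in KO lungs and at 8.91, 8.80, 8.84 and 9.05 in WT lungs, a log2 change of -0.25 (95% interval -0.45 to -0.04, limma adjusted p = 0.0912). It was the fifth member whose groups did not overlap: 5 of 28 lay wholly lower in KO lungs (17.9%) and 0 wholly higher, while this held for 17.5% and 12.1% of all tested genes, 29.6% in either direction. Lama2, the chain of muscle basement membranes, differed by the same log2 change of -0.25 (adjusted p = 0.0990), with overlapping groups, and passed without KO replicate 2 (log2 change -0.34, adjusted p = 0.035).

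Lama5, the main alpha chain of adult epithelial and vascular basement membranes, lies close to the deleted gene on chromosome 2, with 7 annotated genes between them, 3 of them protein-coding. It was at 7.80, 7.74 and 8.02 in KO lungs, against 7.86, 7.86, 7.94 and 7.87 in WT lungs. The KO values lay on both sides of the WT values, and the log2 change of -0.03 (95% interval -0.20 to 0.15) turned sign under a further quantile normalization and under cyclic loess. Its other probe sets above the filter changed by -0.08 and -0.04. Lama1, mainly an embryonic chain, lay under the filter at 4.51 ± 0.07 in KO and 4.39 ± 0.07 in WT lungs.

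**Figure D2:**
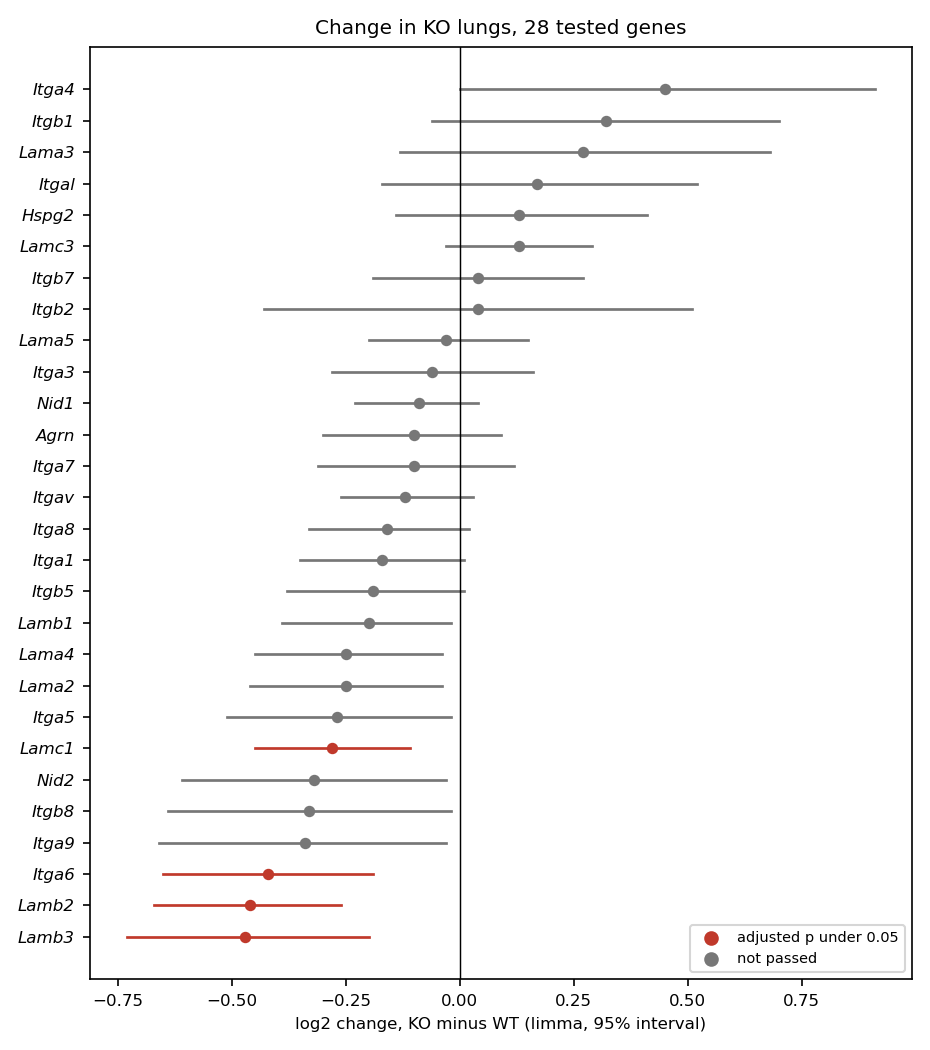
Log2 change, KO minus WT, of the 28 tested genes (rows, sorted) with its 95% interval from limma; red marks adjusted p under 0.05. The 4 red genes lie between -0.47 and -0.28, most other points lie left of 0, and Itga4 is the highest at 0.45.

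Among the linkers and proteoglycans none of 4 passed. Nid1, the nidogen that bridges laminin and collagen, was at 10.99, 10.93 and 10.94 in KO lungs and 10.99, 11.00, 11.07 and 11.12 in WT lungs (log2 change -0.09), so KO replicate 1 and WT replicate 1 had the same value. Nid2 differed by -0.32 (95% interval -0.61 to -0.03, limma adjusted p = 0.114), Agrn by -0.10 and Hspg2 by 0.13. The values of Hspg2 interleaved, at 9.02, 8.62 and 8.79 in KO lungs and 8.46, 8.72, 8.65 and 8.88 in WT lungs, and its second probe set above the filter changed the other way (-0.33, adjusted p = 0.126).

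Itga6 was the integrin chain that fell. It forms laminin receptors with Itgb1 or Itgb4. In KO lungs it was at 11.46, 11.49 and 11.23, against 11.80, 11.61, 11.86 and 11.98 in WT lungs, with no overlap, and the change was 1.34-fold (log2 change -0.42, SE 0.10, limma adjusted p = 0.0294). The call was lost without KO replicate 1 or 3 or WT replicate 1, 3 or 4 (log2 change between -0.45 and -0.34, adjusted p up to 0.0859). A second probe set, 1422444_at, changed by -0.59, with 9.10, 8.98 and 8.81 in KO lungs and 9.61, 9.29, 9.57 and 9.73 in WT lungs, and also passed when all 22420 probe sets above the filter were tested (limma adjusted p = 0.0115).

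The other laminin-binding alpha chains did not pass. Itga3, a laminin receptor chain of epithelium, was at 10.66, 10.37 and 10.74 in KO lungs and 10.67, 10.61, 10.76 and 10.57 in WT lungs, with a log2 change of -0.06 that turned sign under 2 of 3 other scalings. At its other set above the filter, 1421997_s_at, the KO values lay wholly lower. The log2 change there was -0.36 (95% interval -0.68 to -0.05) and did not pass (limma adjusted p = 0.096 among all probe sets). Itga7, the laminin receptor chain of muscle, changed by -0.10. The hemidesmosome chain Itgb4 lay under the filter, with 5.31 ± 0.12 for KO lungs and 5.41 ± 0.08 for WT lungs. For collagen, the receptor chain Itga1 changed by -0.17 (95% interval -0.35 to 0.01), and Itga2 lay under the filter with 5.44, 5.26 and 5.19 in KO lungs against 4.95, 5.14, 5.12 and 5.09 in WT lungs.

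Chains that bind the RGD motif of fibronectin and related ligands, or that pair with Itgav to do so, mostly had log2 changes below 0 without passing. Itga8, a chain of lung myofibroblasts and smooth muscle, was at 12.66, 12.64 and 12.52 in KO lungs and 12.73, 12.62, 12.85 and 12.86 in WT lungs (log2 change -0.16, limma adjusted p = 0.18). Itgav changed by -0.12 and Itga5, the fibronectin receptor chain, by -0.27 (adjusted p = 0.123). Itgb8, which with Itgav binds latent transforming growth factor beta, changed by -0.33 (adjusted p = 0.122) and had groups that met at 6.57. Its relative Itgb6, a chain of injured epithelium, lay under the filter at 5.37 ± 0.16 in KO and 5.50 ± 0.22 in WT lungs. Itga9, a receptor chain for tenascin and other ligands, changed by -0.34 (adjusted p = 0.121), while its other set above the filter changed by 0.09 and the mean of its sets by -0.06.

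The choice of probe set mattered most for the common chain Itgb1 and for Itgb5. At 1438119_at, the Itgb1 probe set used, levels were 11.43, 11.42 and 11.95 in KO lungs and 11.35, 11.44, 11.41 and 10.92 in WT lungs, and the log2 change of 0.32 did not pass (95% interval -0.06 to 0.70, limma adjusted p = 0.201). At 1426918_at they were 7.82, 7.80 and 7.61 in KO lungs, against 8.25, 8.32, 8.28 and 8.58 in WT lungs, a log2 change of -0.61 that passed among all probe sets (limma adjusted p = 0.00633). At 1452545_a_at they were 8.20, 7.67 and 7.83 in KO lungs and 8.62, 8.40, 8.40 and 8.53 in WT lungs (-0.59, adjusted p = 0.0153). Among the Itgb1 sets above the filter, the groups were thus apart at both dimmer ones and overlapped at the brightest.

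Itgb5, which pairs with Itgav to bind vitronectin, showed the same split by probe set. The set used, 1456133_x_at, carries the suffix that Affymetrix gives to sets with probes that also match other transcripts, and its log2 change was -0.19 (adjusted p = 0.153). The sets without that suffix fell: 1417533_a_at was at 8.92, 8.07 and 8.38 in KO lungs, against 9.45, 9.59, 9.14 and 9.34 in WT lungs (1.90-fold, limma adjusted p = 0.0138 among all probe sets). Likewise 1417534_at was at 8.24, 7.79 and 7.85 in KO lungs, against 8.70, 8.88, 8.40 and 8.74 in WT lungs (1.65-fold, adjusted p = 0.0115). For Lamb1, probe set 1424113_at was at 7.10, 6.90 and 6.56 in KO lungs, against 7.52, 7.37, 7.57 and 7.51 in WT lungs (1.56-fold lower, adjusted p = 0.0107). Itga5 went the other way at 1458996_at, with 6.48, 6.93 and 6.63 in KO lungs against 6.23, 6.30, 6.43 and 6.26 in WT lungs (log2 change 0.38, adjusted p = 0.0423).

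The 33 genes had 74 probe sets, of which 48 lay above the filter. Of these 48, 10 were lower in KO lungs (20.8%) and 1 was higher, while 13.3% of all 22420 probe sets above the filter were lower and 5.83% higher. The lower ones belonged to 7 genes, namely the 4 already called and Itgb1, Itgb5 and Lamb1. The difference between the change at the set used and at each other set of the same gene was tested per array, in 20 pairs over 15 genes. It reached the smallest exact permutation p of 0.0286 in 11 pairs, which is 0.052 after Benjamini-Hochberg adjustment. With 11 of 20 pairs at this smallest value no pair could pass, however wide, so the adjusted test cannot decide. The widest were Itgb1 (changes 0.93 and 0.91 higher at the set used), Itgb5 (0.74 and 0.53 higher), Itga5 (0.64 lower) and Hspg2 (0.46 higher). With the mean of all sets of a gene, the log2 change was 0.13 for Itga4 and -0.15 for Lama4.

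**Figure D3:**
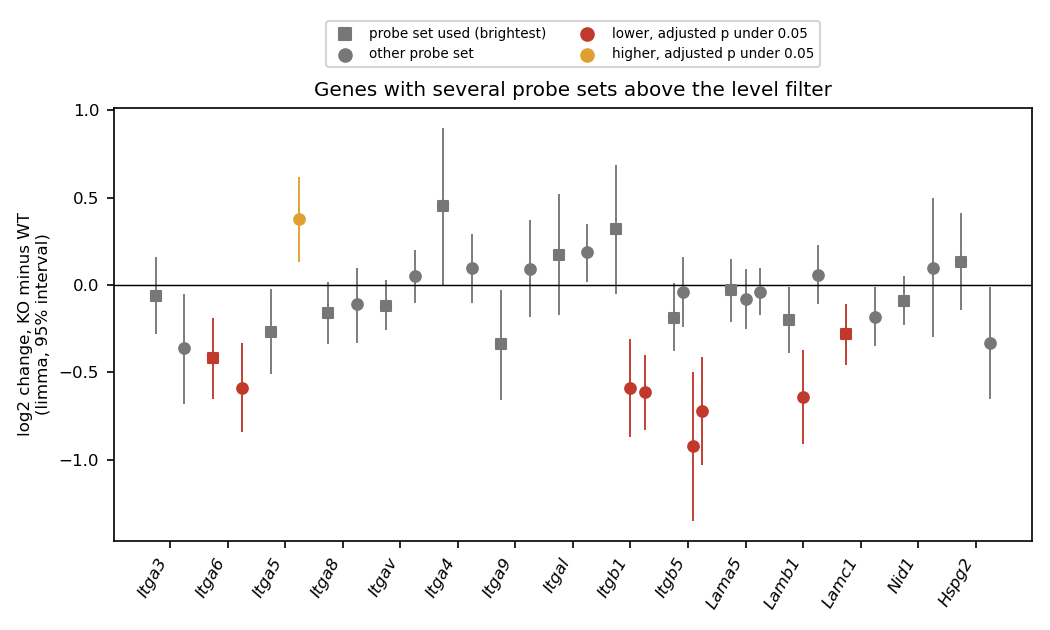
Log2 change, KO minus WT, with its 95% interval from limma over all probe sets above the filter, for the 15 genes with several such sets; squares are the sets used and circles the others, red lower and amber higher at adjusted p under 0.05. Sets of Itgb1, Itgb5, Lamb1, Lamc1 and Itga5 differ in their call, and those of Itgb1, Lamb1 and Itga5 also in sign.

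The beta-actin difference, which was larger on KO arrays by the values above, was also fitted as a covariate. It ran from 4.74 to 5.39 on KO and from 3.88 to 4.31 on WT arrays, without overlap. Its effect and that of genotype can thus hardly be told apart over 7 arrays, and a lost call does not show an absent change. With the covariate, 0 of the 28 genes and 0 of 13285 genes passed with limma. At an unadjusted p under 0.05 were 3 lower and 1 higher of the 28 and 2204 of all genes. The log2 change was then -0.59 for Itga6, -0.41 for Lamb2, -0.46 for Lamb3 and -0.10 for Lamc1. Markers of vessel lining, smooth muscle and fibroblasts, cells that make or sit on basement membranes, were read in the fit without the covariate. In that fit, 10.0% of all tested genes were lower and 5.56% higher. The mean log2 level of 8 endothelial markers was 9.57 to 9.88 on KO and 10.08 to 10.39 on WT arrays. Of the 8, 3 were lower, with the largest fall in the junction protein Pecam1 (log2 change -1.22). The other 5, between -0.42 for Cldn5 and -0.04 for Vwf, did not pass. The 6 smooth muscle markers averaged 8.97 to 9.11 on KO and 9.33 to 9.48 on WT arrays, with 4 of 6 lower, and the 5 fibroblast markers 10.90 to 11.13 on KO and 11.28 to 11.40 on WT arrays, with 2 of 5 lower. The 5 alveolar type 1 markers averaged 11.55 to 11.82 on KO and 11.80 to 11.97 on WT arrays, with 1 of 5 lower. The 5 measured type 2 markers averaged 12.44 to 12.62 on KO and 12.70 to 12.89 on WT arrays, with 0 of 5 lower, and the 4 mesothelial markers 5.70 to 6.43 on KO and 6.60 to 7.53 on WT arrays, with 3 of 4 lower. The 4 airway epithelial markers averaged 10.44 to 10.79 on KO and 10.53 to 10.80 on WT arrays, with 0 of 4 lower and 0 higher. The 4 cardiac muscle markers averaged 9.89 to 10.70 on KO and 9.86 to 10.89 on WT arrays, again with 0 of 4 lower and 0 higher. The part of these cells in the laminin and integrin values was not tested.

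No leukocyte integrin chain passed. Itga4, which with Itgb1 or Itgb7 tethers lymphocytes and monocytes, was at 9.36, 9.52 and 8.73 in KO lungs and 8.82, 8.57, 8.53 and 9.08 in WT lungs, the largest increase of the 28 genes (log2 change 0.45, limma adjusted p = 0.146). KO replicate 3 fell among the WT values, and without it Itga4 passed (log2 change 0.69, adjusted p = 0.0438). Itgal, the alpha chain of the lymphocyte receptor for ICAM proteins, was at 9.71, 9.72 and 9.15 in KO lungs and 9.39, 9.32, 9.15 and 9.55 in WT lungs. Itgb2, its beta chain, was at 9.49, 9.73 and 8.76 in KO lungs and 9.28, 9.28, 9.10 and 9.47 in WT lungs. Itgb7, a chain of mucosal lymphocytes, was at 7.57, 7.49 and 7.23 in KO lungs and 7.39, 7.40, 7.23 and 7.53 in WT lungs.

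Their log2 changes were 0.17, 0.04 and 0.04 in that order, and in each of these 4 genes KO replicate 3 was the lowest KO array. The leukocyte marker lists had the same low array. The 4 measured neutrophil and monocyte markers averaged 10.06, 10.09 and 8.85 on KO arrays and 9.28 to 10.09 on WT arrays, the 2 B cell markers 8.76, 8.01 and 7.24 on KO arrays and 6.96 to 8.23 on WT arrays, and the 4 T and NK cell markers 6.46, 6.48 and 6.16 on KO arrays and 6.17 to 6.44 on WT arrays. None of the markers of these lists passed. Itgam, the myeloid chain that pairs with Itgb2, lay under the filter at 3.70 ± 0.03 in KO and 3.70 ± 0.06 in WT lungs, at the array's only probe set that carries its name.

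**Figure D4:**
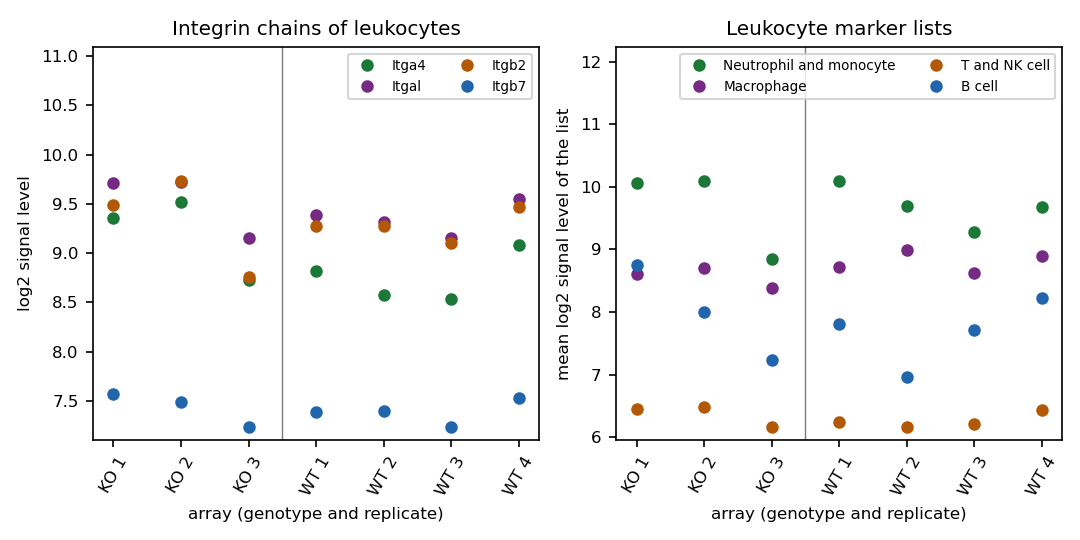
Left, log2 signal level of 4 leukocyte integrin chains on each array, and right, the mean log2 level of 4 leukocyte marker lists, with KO arrays left of the line and WT arrays right of it. KO 3 is the lowest KO array in all 4 genes and all 4 lists.

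Partner genes from further lists, drawn up with earlier results of these arrays known, were read in the same fit. Of 6 tested integrin and laminin-like chains outside the 33, among them Itgax, Itgb3 and Itga2b, none passed, with changes between -0.29 for Itga10 and 0.28 for Itga2b. None of 9 tested network collagens passed either: Col4a1, a chain of nearly every basement membrane, changed by -0.27 and Col4a3, a chain of alveolar and glomerular membranes, by 0.22. Of 14 other basement membrane proteins, 4 fell and 10 did not pass, where 10.0% of all tested genes were lower and 5.56% higher. Tinagl1, a matrix protein of vessels, fell 1.47-fold, Bgn, the proteoglycan biglycan, 1.43-fold, Fras1, an epithelial anchoring protein, 1.52-fold, and Sparc, a collagen-binding matricellular protein, 1.25-fold.

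Of 12 other matrix receptors, 4 fell, 2 rose and 6 did not pass (10.0% of all tested genes were lower and 5.56% higher). Sdc2, a heparan sulfate syndecan, fell 1.51-fold, to 9.96 ± 0.15 (SD, n = 3) in KO lungs, against 10.56 ± 0.11 (SD, n = 4) in WT lungs (limma adjusted p = 0.00793). Bcam, a receptor for Lama5, fell 1.49-fold and the collagen receptor Ddr2 1.44-fold, whereas the collagen receptor Ddr1 rose 1.24-fold. Ddr1 was measured at an _x_at set; its 6 other sets above the filter also had log2 changes above 0, 3 of them passing, each an _x_at set.

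Of 26 integrin activators and adaptors, 8 fell, 3 rose and 15 did not pass (10.0% of all tested genes were lower and 5.56% higher). Itgb1bp1, which binds the tail of Itgb1, fell 1.62-fold, to 7.05 ± 0.22 (SD, n = 3) in KO lungs, against 7.75 ± 0.13 (SD, n = 4) in WT lungs (limma adjusted p = 0.00904). Flna, an actin cross-linker that binds integrin tails, fell 1.40-fold and the adaptor Crk 1.29-fold. The other Crk sets above the filter differed in sign. Their log2 changes were -1.01 (limma adjusted p = 0.00214 among all probe sets), -0.16, 0.13 and 0.25, and the last 3 did not pass. Fermt3, the kindlin of blood cells and platelets, rose 1.71-fold, to 10.83 ± 0.16 in KO lungs, against 10.05 ± 0.09 in WT lungs (adjusted p = 0.00526). Of 4 platelet markers, Ppbp and Gp1bb rose and Pf4 and Gp9 did not pass, where 5.56% of all tested genes were higher. The mean of the 4 markers was 8.96 to 9.30 on KO and 8.22 to 8.79 on WT arrays. The part of platelets in the Fermt3 value was not tested. The other sets of Fermt3 above the filter changed by 0.19 and 0.05 and did not pass.

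Of 14 other integrin ligands, 5 fell and 9 did not pass (10.0% of all tested genes were lower and 5.56% higher). Fn1, fibronectin, fell 1.81-fold, to 10.21 ± 0.37 (SD, n = 3) in KO lungs, against 11.06 ± 0.15 (SD, n = 4) in WT lungs (limma adjusted p = 0.0136). Tgfb1, whose latent form is bound by Itgav receptors, fell 1.33-fold, Ltbp1, which holds that form in the matrix, 1.23-fold, and Vtn, vitronectin, 1.45-fold. Of the 16 genes named here by their rank in the lists, Tinagl1, Sdc2, Ddr2, Itgb1bp1, Flna, Crk, Fermt3, Fn1 and Tgfb1 kept their call in all 7 fits that lack 1 array. Of the rest, Bcam was lost without KO replicate 3 (adjusted p = 0.0571), Bgn without KO replicate 2 or 3 or WT replicate 4, and Fras1 without KO replicate 2 or 3 or WT replicate 3 or 4. Ddr1 and Ltbp1 were lost without KO replicate 3 or WT replicate 1, 3 or 4, Vtn without any of these or KO replicate 2, and Sparc without any array but WT replicate 1, with an adjusted p of at most 0.110 over these genes. With the mean of all sets of a gene, 4 of the 16 did not pass: Tgfb1 changed by -0.16 (adjusted p = 0.0739), Ltbp1 by -0.05 (0.582), Fermt3 by 0.20 (0.0870) and Fras1 by -0.41 (0.0504). Sdc2, at -0.33, and Crk, at -0.23, passed with smaller changes. Sparc was also lost under a further quantile normalization (adjusted p = 0.0522) and cyclic loess (0.0607), and Ltbp1 under the first (0.0555). Another probe set above the filter changed with the opposite sign in 7 of the 26 changed partner genes, Crk and Tgfb1 among them.

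**Figure D5:**
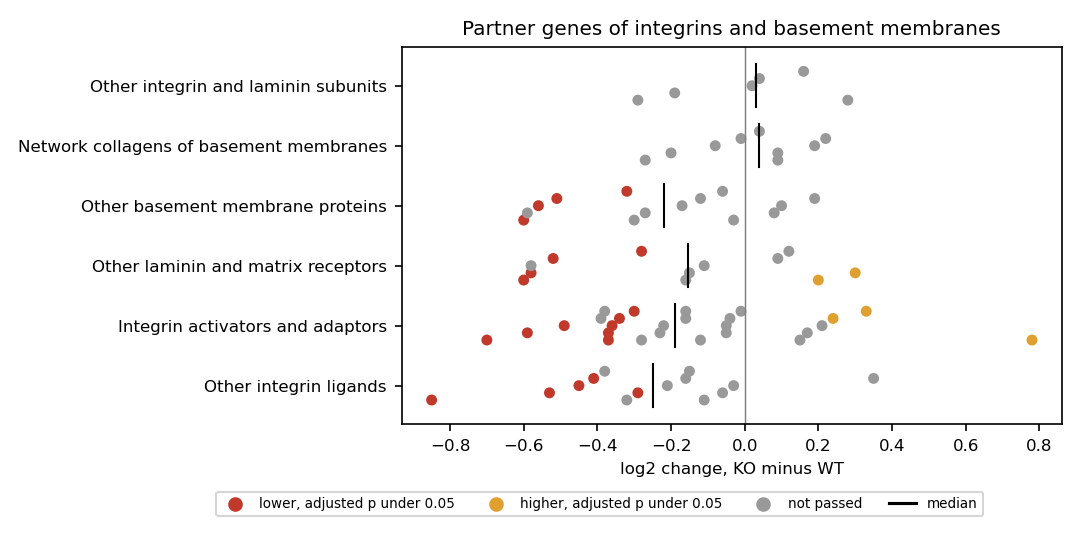
Log2 change, KO minus WT, of the tested genes of 6 partner lists (rows), each point a gene, red lower and amber higher at adjusted p under 0.05 with limma, and the black bar the list's median. The medians are 0.03 for other chains, 0.04 for network collagens, -0.22 for other basement membrane proteins, -0.15 for receptors, -0.19 for adaptors and -0.25 for ligands.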

How the data were processed

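Total RNA of 7 left lungs was labelled with biotin and hybridised to 1 array each. The authors deposited 1 table of log2 levels for 45101 probe sets. The tools listed per the submitters' processing notes are RMA, MAS5 and Affymetrix Expression Console, without a role, so the method behind the table is unstated; its log2 scale was taken from the range of the values. After 64 control sets were removed, 34945 sets had 1 gene in the platform annotation, 932 had several and 9160 had none. Current symbols replaced 34741 names through their gene IDs. Groups came from the labels, which call the samples biological replicates.

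Values were used as deposited. The genotype effect was fitted by limma 3.58.1 (lmFit, then eBayes; R 4.3.3), with no other term, over 13285 genes at or above the 40th percentile, with Benjamini-Hochberg adjustment; 4908 genes were set aside. Single values per array had an exact two-sided permutation test over 35 splits. Promoter windows were RefSeq's, GRCm38.p6. The fit was tested on simulated data. Alternatives covered scaling, filter, probe sets, variance model, array weights, covariates, a replicate block, mouse subsets and leaving out each array; a pseudocount was not needed. Arrays have no counting depth, and their number limits the precision.

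Members and lists were chosen with earlier results of these data known. All members are named; arrays are listed for members that passed and, after their values were seen, for others. Partner genes were the 4 with the smallest p of each list; Itga10, Itga2b, Itgax, Itgb3, Col4a1 and Col4a3 were added after their values were seen. Single markers named were chosen after their values were seen. Figures used matplotlib 3.10.9 under Python 3.11.15.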

Additional observations from a re-analysis of the deposited data

Results flagged for a closer look

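Among 75 quantities examined over the 4 WT arrays, 4 had a sample whose gap to its nearest neighbour, divided by the range of the group, exceeded Dixon's 95% critical value; groups of 3 were not examined, and chance gives about 1 in 20 groups. Lama5 was at 7.94 on WT replicate 3 and 7.86 to 7.87 on the other WT arrays (ratio 0.875), and Lamc3 at 5.39 on WT replicate 3 and 5.49 on the other 3 (ratio 1). The spans of both are small against those of most genes here, 0.08 and 0.10. WT replicate 4 stood apart for Xist (12.72, ratio 0.980) and for the Y-linked Eif2s3y (3.71, against 9.30 to 9.38 on the other WT arrays and 9.46 to 9.68 on KO arrays, ratio 0.986). Without that array 1 of the 28 genes passed, Lamb2, at a log2 change of -0.41 (limma adjusted p = 0.0364).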

How the results depend on the processing

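The 4 calls kept their direction under all 20 alternatives. The number of members lower, 4 as reported, was 3 under a further quantile normalization or cyclic loess, both without Lamc1, 2 with array weights (Lamb2 and Itga6), 1 with the Xist level as covariate (Lamb2) and 0 with the beta-actin difference as covariate, with the replicate block or in the 5 mice with the lowest mouse numbers; leaving out 1 array gave 1 to 3, with 1 without KO replicate 3, WT replicate 3 or WT replicate 4. At an unadjusted p under 0.05 with limma, 3 members were lower and 1 higher with the beta-actin difference. With the block these counts were 8 and 1, and in the 5 mice 6 and 1. Of the 13285 genes tested, 2204, 3405 and 2791 were at that level in either direction, in the same order. Members higher numbered 0 to 1, the 1 being Itga4 without KO replicate 3. All changed genes, 2069 as reported, numbered 935 with Xist, 371 with the replicate block, 0 with the beta-actin difference or in the 5 mice (2204 and 2791 at an unadjusted p under 0.05), and 891 to 1951 without 1 array (891 without WT replicate 4, 1017 without WT replicate 1, 1104 without KO replicate 3 or WT replicate 3). The causes were not tested, except that the subsets hold fewer arrays. The 5 mice are all KO mice with WT replicates 1 and 2, because WT replicates 3 and 4 have the highest mouse numbers. Same-numbered KO and WT arrays had deviations that correlated at 0.11, -0.02 and -0.08 over the tested genes, so the numbers were not taken as pairs.

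Signs turned for several members that had not passed. A further quantile normalization gave 0.030 for Itga3 and 0.033 for Lama5, and cyclic loess 0.005 and 0.002. The mean of all probe sets gave 0.14 for Itga5, 0.010 for Itgav, -0.21 for Itgb1 (adjusted p = 0.0362) and -0.10 for Hspg2, and then called 6 members lower. The beta-actin covariate gave 0.13 for Itga3, 0.019 for Itga7, -0.35 for Itgb2, 0.010 for Itgb5 and 0.091 for Lama5. Without 1 array Itga3 ran from -0.14 to 0.048, Lama5 from -0.11 to 0.028, Itgb2 from -0.16 to 0.33 and Itgb7 from -0.027 to 0.14. Of changed genes, 35.7% were higher as deposited, 56.9% after quantile normalization, 25.5% after centring on the median and 46.7% after cyclic loess. The median member change was -0.08, -0.17 and -0.10 in the last 3. Over all tested genes the median change was 0.04, -0.03 and 0.02 in the same order.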

Other observations

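The suffix of a probe set went with the direction of change across the whole array. Of 16582 probe sets above the filter that end in plain _at, 13.1% were lower and 5.29% higher in KO lungs, while of 1480 that end in _x_at, 4.46% were lower and 13.1% higher, with median log2 changes of -0.019 and 0.101. For _a_at sets the shares were 18.3% lower and 4.47% higher, and for _s_at sets 14.6% and 7.22%. Of the 33 genes, only Itgb5 was represented by an _x_at set. Among the partner genes named in this report, Ddr1 and Sdc1, which both rose, were also represented by such sets.

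Sdc1, a syndecan of epithelium, was the second matrix receptor that rose (log2 change 0.20, limma adjusted p = 0.0436, at an _x_at set), but its set 1415943_at fell by 0.34 (adjusted p = 0.0139 among all probe sets). Tln1, the talin that activates integrins, fell 1.28-fold at the set used, and its set 1436042_at changed by 0.42 (adjusted p = 0.0208). Sdc1 and Tln1 were chosen after their values were seen.

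KO replicate 3 was the lowest KO array in 15 of the 28 tested genes, KO replicate 2 in 9 and KO replicate 1 in 4, while over all tested genes the shares were 35.1%, 26.7% and 32.9% in the same order.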
